A study of Mus musculus with 10 samples.

Results

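The 10 genes of Toll-like receptor (TLR) and MYD88 signalling examined here by RNA-seq of Lin− bone marrow cells were the receptors Tlr1, Tlr2, Tlr4, Tlr5, Tlr6 and Tlr9, the receptor partners Ly96 and Unc93b1, and the signalling genes Myd88 and Irak4. They were chosen by name from the 55359 genes of the deposited table, and all 10 were found there and passed the filter on low values (at least 0.1 FPKM on average), as 18742 genes did. Lin− cells are bone marrow cells depleted of mature blood cells with a lineage kit. The libraries labelled WT, 5 in number, came from Dhx9f/f mice, whose floxed Dhx9 alleles both genotypes carry, and the 5 labelled cKO from Dhx9f/f;MX1 mice, which in addition carry Cre recombinase under the interferon-responsive Mx1 promoter. Cre is induced in these mice with poly(I:C), a double-stranded RNA mimic that itself acts on TLR3 and on cytosolic RNA sensors. The sources used here do not state if the mice labelled WT received poly(I:C) too, so genotype and poly(I:C) cannot be told apart if they did not. The age of the mice and the animal behind each library are not given either, and the p-values below measure the spread between libraries.

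Toll-like receptors recognise molecules of microbes. TLR2, paired with TLR1 or TLR6, binds bacterial lipoproteins at the cell surface, TLR4 binds lipopolysaccharide together with MD-2 (encoded by Ly96), and TLR5 binds flagellin, whereas TLR9 senses unmethylated CpG DNA in endosomes, to which UNC93B1 carries it. These receptors signal through the adaptor MYD88, which gathers the kinases IRAK4, IRAK1 and IRAK2, and the signal ends in NF-κB and IRF transcription factors and inflammatory cytokines. In blood formation the receptors are best known from monocytes, macrophages, dendritic cells, neutrophils and B cells, and they are also present on some progenitors.

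The libraries held 13790000 to 18720000 fragments as read from the values. Dhx9, the targeted gene, went against the labels, at 130.82 to 156.49 FPKM (fragments per kilobase of gene, scaled to library depth) in the libraries labelled cKO and 65.43 to 72.42 in WT, so libraries are named by their labels below and every direction rests on those labels. Xist was on in WT 3 to 5 and Ddx3y in WT 1 and 2 and in all 5 libraries labelled cKO, so the labels also differ in the mix of sexes. Cell type markers moved with the labels. For comparison, 16.8% of all genes tested were called lower under the cKO label and 4.6% higher. Of 15 markers of monocytes, macrophages and dendritic cells, 13 were called lower under the cKO label and 0 higher, and their summed level was 1014 to 1757 FPKM in WT against 10.02 to 319 FPKM, with Siglech and Itgax at 0 in some libraries labelled cKO. Of the neutrophil markers 6 of 14 were called lower and 0 higher (sum 2739 to 3726 FPKM in WT against 147 to 2608). Among them Ngp, Ltf, Camp and Mmp9 had log2 fold changes of 1.43, 1.39, 0.98 and 0.56 and were not called. The other neutrophil markers lay below 0. Of the B cell markers 4 of 7 tested were called lower (sum 11.94 to 17.14 against 0.94 to 7.19). In the other lists, 5 of 10 T and NK cell, 9 of 9 megakaryocyte, 8 of 9 mast cell, basophil and eosinophil, 6 of 9 stem and progenitor and 6 of 8 stromal and endothelial markers were called lower, and 1 of the last list was called higher. Erythroid markers went the other way, with 8 of 14 called higher and a sum of 1705 to 3036 FPKM in WT against 5016 to 8356. Kit, the receptor that marks progenitors, was at 36.56 to 54.36 FPKM in WT and at 18.73 to 31.11 in the libraries labelled cKO. This marker was present under both labels, but every library labelled cKO lay below every WT library (log2 fold change -0.86). Among the 6 stem and progenitor markers called lower, Cd34, Hlf, Procr and Meis1 changed by -3.32, -2.80, -2.21 and -1.94. Kit, Ly6a (-1.34) and Cd48 (-0.04) were not called, so the level of Kit does not stand for the whole list. In bulk RNA, fewer cells of a type and less RNA per cell cannot be told apart.

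Promoter sequence was available for 7 of the 10 genes (Irak4, Myd88, Tlr1, Tlr2, Tlr5, Tlr6 and Tlr9) in RefSeq's table for GRCm38.p6, and was placed on GRCm39 by exact match. The 250 bases before each start were searched on both strands for letters of motifs of factors that act in myeloid cells or downstream of TLRs. The letters of the myeloid factor PU.1 (GAGGAAGT) stood in 2.44% of all 32851 promoters and, among these genes, in Tlr1. The repeat GAAA, any 2 bases, GAAA, bound by interferon regulatory factors, stood in 2.98% of promoters and in those of Myd88 and Tlr6, and TTGCNNAA, a core of C/EBP sites, in 9.56% and in that of Tlr6. The NF-κB letters searched, GGG, any 2 bases, TTTCC, stood in 1.41% of promoters and in none of these. They are a narrow form of the NF-κB site, and other forms were not searched. The shorter GAGGAA, contained in the PU.1 letters, stood in 23.3% and in the promoters of Tlr1 and Tlr9. The windows are shown 5′ to 3′ on the gene's strand, with the matched letters in capitals, since they hold the letters found before the starts of these genes. Those of Tlr1, Tlr6 and Myd88 lie before a RefSeq start that falls inside the GENCODE gene, and the Tlr6 matches lie on the opposite strand. The first 2 Tlr6 windows hold overlapping matches of the same repeat. For Tlr9, which was nearly absent from 3 libraries labelled cKO, all 250 bases are given.
Tlr1 (chr5:65090906-65090935, minus strand): attaaatgttgGAGGAAGTaggagcttgaa
Tlr6 (chr5:65116606-65116635, minus strand): tgactattctTTTCTCTTTCactttctgtt
Tlr6 (chr5:65116600-65116629, minus strand): ttcttttctcTTTCACTTTCtgtttgatgt
Tlr6 (chr5:65116580-65116609, minus strand): tgtttgatgtaTTAAGCAAattcttattgt
Myd88 (chr9:119169105-119169134, minus strand): gagcttctcgGAAAGCGAAAgaaggagggg
Tlr9 (chr9:106099547-106099796, plus strand): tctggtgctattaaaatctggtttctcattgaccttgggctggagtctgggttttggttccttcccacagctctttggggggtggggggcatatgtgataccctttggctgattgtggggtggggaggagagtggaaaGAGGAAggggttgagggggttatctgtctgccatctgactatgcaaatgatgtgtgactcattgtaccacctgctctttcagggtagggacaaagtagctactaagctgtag
A match describes letters in a window and is not a bound site.

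Across the 10 genes, 6 receptors and Unc93b1 fell in the libraries labelled cKO, while Ly96 and Irak4 were lower by less than 2-fold and the 95% interval of the Myd88 difference stayed within -0.16 and 0.13 on the log2 scale. The call needed an adjusted p under 0.05 (limma, Benjamini-Hochberg over all genes tested) and a change of at least 2-fold. Thus 7 of 10 were called lower, against 16.8% of all genes tested, and 0 were called higher, against 4.6%. By adjusted p alone 9 of 10 were lower, against 28.3% of all genes, and 0 were higher, against 16.7%. The ninth, Ly96, was close to the threshold and missed it under 13 of 21 alternatives. In 9 of 10 all 5 libraries labelled cKO lay below all 5 WT libraries, against 21.6% of all genes, and in 0 they lay above, against 10.6%. The median log2 fold change of the 10 was -1.98 and that of all genes tested -0.11. The genes were chosen with earlier results of these data known, and these shares are descriptions.

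**Figure D1:**
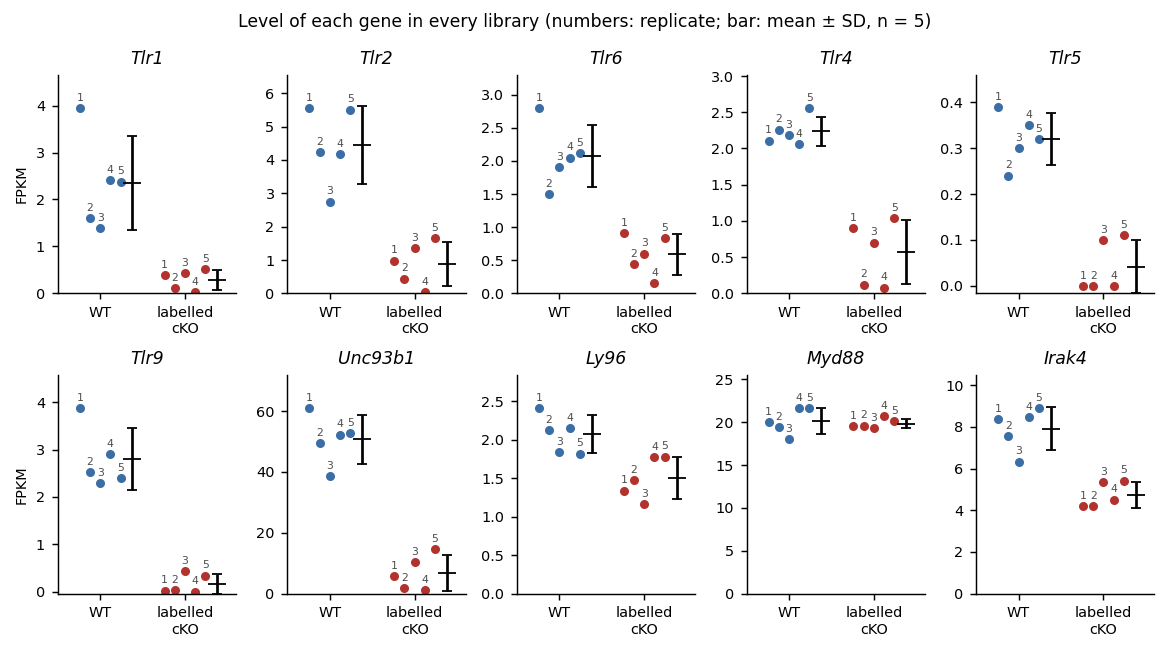
Level (FPKM, linear axis) of each of the 10 genes in the 5 WT libraries (blue) and the 5 libraries labelled cKO (red), numbered by replicate, with mean ± SD beside the points. The groups are apart for every gene but Myd88, and cKO 2 and cKO 4 are lowest for most receptors.

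The surface receptors for lipoproteins were examined first. Tlr2 (ENSMUSG00000027995; chromosome 3, 83743576 to 83749074, minus strand), the shared subunit of both pairs, was at 5.56, 4.24, 2.75, 4.18 and 5.51 FPKM in WT 1 to 5 and at 0.98, 0.44, 1.36, 0.04 and 1.65 FPKM in cKO 1 to 5. The lowest WT library lay above the highest library labelled cKO, and cKO 4 held hardly any Tlr2. The means were 4.45 ± 1.16 and 0.894 ± 0.658 FPKM (SD, n = 5 each) (log2 fold change -2.60, standard error, SE, 0.602, adjusted p = 0.00496).

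Tlr1 (ENSMUSG00000044827; chromosome 5, 65082022 to 65090941, minus strand), which pairs with TLR2 for triacylated lipoproteins, was at 3.95, 1.6, 1.39, 2.41 and 2.38 FPKM in WT and at 0.39, 0.12, 0.43, 0.02 and 0.51 FPKM in cKO 1 to 5. WT 1 stood above the other WT libraries, and the groups did not overlap. Tlr1 fell from 2.35 ± 1.01 to 0.294 ± 0.212 FPKM (SD, n = 5 each) (log2 fold change -2.78, SE 0.471, adjusted p = 0.00081). Its neighbour Tlr6 (ENSMUSG00000051498; chromosome 5, 65108704 to 65203497, minus strand), the partner for diacylated lipoproteins, was at 2.80, 1.5, 1.91, 2.05 and 2.12 FPKM in WT and at 0.91, 0.44, 0.60, 0.16 and 0.83 FPKM in cKO 1 to 5. The groups were again apart, and cKO 1 rather than cKO 5 was the highest of its label. Tlr6 fell by 1.78 on the log2 scale (SE 0.355, adjusted p = 0.00208), from 2.08 ± 0.471 to 0.588 ± 0.303 FPKM. Tlr1 and Tlr6 are close copies, but only 4.13% of the 150-base windows of Tlr1 and 2.9% of those of Tlr6 occur in the other. Tlr6 also overlaps Fam114a1 on the opposite strand, which was at 1.31 FPKM over the 10 libraries, and whether the counting used strand is not given in the sources used here.

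The lipopolysaccharide receptor and its partner moved by unequal amounts. Tlr4 (ENSMUSG00000039005; chromosome 4, 66745783 to 66849936, plus strand) was at 2.11, 2.26, 2.19, 2.06 and 2.56 FPKM in WT, the narrowest relative spread of the receptors. In the libraries labelled cKO it was at 0.90, 0.12, 0.70, 0.08 and 1.04 FPKM, so that cKO 2 and cKO 4 were far below the other 3 and all 5 were below WT. Tlr4 fell from 2.24 ± 0.197 to 0.568 ± 0.444 FPKM (SD, n = 5 each) (log2 fold change -2.18, SE 0.511, adjusted p = 0.00527). Ly96 (ENSMUSG00000025779; chromosome 1, 16758275 to 16779961, plus strand), whose product MD-2 binds the lipid on TLR4, was at 2.41, 2.13, 1.84, 2.15 and 1.82 FPKM in WT and at 1.34, 1.48, 1.16, 1.77 and 1.78 FPKM in cKO 1 to 5. The groups touched closely, between 1.78 and 1.82 FPKM, and cKO 4, lowest for Tlr4, was among the highest of its label for Ly96. Its log2 fold change was -0.44 (95% interval -0.80 to -0.08, adjusted p = 0.0452), under the limit of 2-fold, and with quantile normalization it was 0.05 (adjusted p = 0.845). With median-ratio scaling its adjusted p was 0.109 and with the replicate number as a block 0.0823. About 22.8 to 49.7 fragments stood behind each Ly96 value.

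Tlr5 (ENSMUSG00000079164; chromosome 1, 182782311 to 182805500, plus strand), the flagellin receptor, was the lowest of the 10, at 0.39, 0.24, 0.30, 0.35 and 0.32 FPKM in WT. It was listed at 0 in cKO 1, cKO 2 and cKO 4 and at 0.10 and 0.11 FPKM in cKO 3 and cKO 5, so all 5 lay below WT. About 26.6 to 44.0 fragments stood behind the WT values and 0 to 11.7 behind the others, and a count of 0 allows up to 0.026 to 0.0324 FPKM (3 fragments) in these libraries, counting error only. On the log2 scale Tlr5 fell by 1.65 (SE 0.312, adjusted p = 0.00154), but only by 0.34 when 1 rather than 0.1 was added to FPKM, which is under the 2-fold limit.

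Among the endosomal members, Tlr9 (ENSMUSG00000045322; chromosome 9, 106099797 to 106104082, plus strand) had the largest log2 fold change of the 10 with a pseudocount of 0.1, though not with 1, where Tlr9 was at -1.71 and Unc93b1 at -3.12. Its promoter, with GAGGAA but without the full PU.1 letters, is printed in full with the sequences. Tlr9 was at 3.88, 2.53, 2.29, 2.9 and 2.39 FPKM in WT and at 0.02, 0.03, 0.43, 0 and 0.34 FPKM in cKO 1 to 5. In cKO 1, cKO 2 and cKO 4 it was at or under the level of 3 fragments (0.0502 to 0.0626 FPKM), while cKO 3 and cKO 5 held a measurable amount that was still below every WT library. Tlr9 fell from 2.80 ± 0.648 to 0.164 ± 0.205 FPKM (SD, n = 5 each) (log2 fold change -3.79, SE 0.482, adjusted p = 0.000181). Unc93b1 (ENSMUSG00000036908; chromosome 19, 3985167 to 3999341, plus strand), the chaperone that brings TLR9 and the other nucleic acid receptors to endosomes, was the most abundant of the 10 in WT, at 60.96, 49.42, 38.63, 52.30 and 52.80 FPKM. It was at 5.86, 1.77, 10.50, 1.06 and 14.69 FPKM in cKO 1 to 5, a spread of more than 10-fold within the label but all below WT. Unc93b1 fell from 50.8 ± 8.05 to 6.78 ± 5.81 FPKM (log2 fold change -3.46, SE 0.619, adjusted p = 0.00112).

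The shared signalling genes behaved unlike the receptors. Myd88 (ENSMUSG00000032508; chromosome 9, 119165000 to 119170486, minus strand), the adaptor of every receptor in this list, was at 19.99, 19.41, 17.98, 21.62 and 21.60 FPKM in WT and at 19.49, 19.60, 19.28, 20.67 and 20.12 FPKM in cKO 1 to 5. The groups overlapped throughout, with means of 20.1 ± 1.54 and 19.8 ± 0.561 FPKM (SD, n = 5 each). The log2 difference was -0.02 with a 95% interval of -0.16 to 0.13 (adjusted p = 0.847), and its sign depended on the scaling, at 0.09 with median-ratio scaling. Irak4 (ENSMUSG00000059883; chromosome 15, 94441161 to 94479696, plus strand), the kinase recruited first by MYD88, was at 8.36, 7.54, 6.33, 8.46 and 8.89 FPKM in WT and at 4.19, 4.18, 5.35, 4.51 and 5.42 FPKM in cKO 1 to 5. Every library labelled cKO was below every WT library, and the values within each label were close together. The log2 fold change was -0.73 (95% interval -0.998 to -0.462, adjusted p = 0.000743), which did not reach 2-fold, and the means were 7.92 ± 1.01 and 4.73 ± 0.613 FPKM. Both genes overlap others on the opposite strand, Myd88 Acaa1a (7.81 FPKM) and Irak4 Twf1 and Pus7l (15.2 and 8.52 FPKM).

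**Figure D2:**
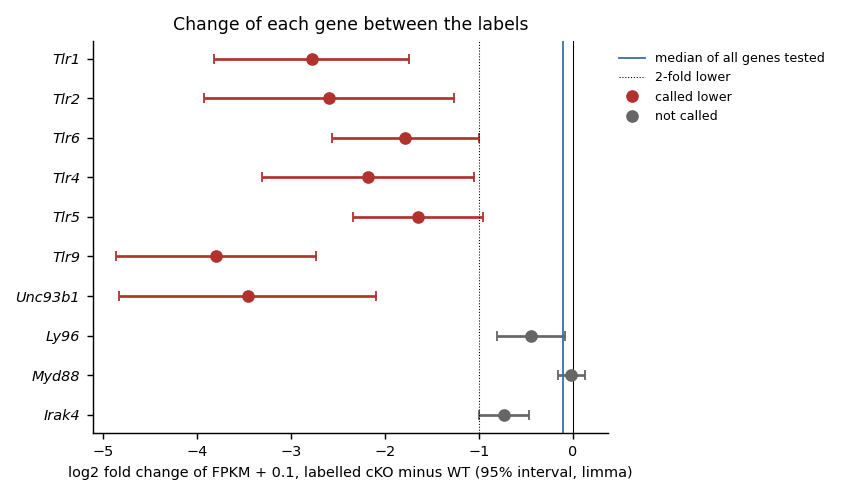
Log2 fold change of FPKM + 0.1 (libraries labelled cKO minus WT) of each gene, with its 95% interval from limma and n = 5 in each group. The 7 genes called lower lie between -1.65 and -3.79, and Ly96, Irak4 and Myd88 lie at -0.44, -0.73 and -0.02.

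Because the mix of sexes differed between the labels, the comparison was repeated with WT 1 and 2 only, an alternative chosen after seeing the data. With these 2 WT libraries Tlr1, Tlr5, Tlr9 and Unc93b1 were still called lower, as were 2347 of all 18742 genes. Tlr2, Tlr4 and Tlr6 had log2 fold changes of -2.76, -2.15 and -1.79 with adjusted p of 0.0753, 0.102 and 0.0621 and were not called. With all 10 libraries kept and Xist above 1 FPKM as a covariate in limma, all 7 genes stayed called lower. Tlr2, Tlr4 and Tlr6 then had the same log2 fold changes, with adjusted p of 0.0309, 0.0436 and 0.0214. Their calls, but not their log2 fold changes, thus differed between these fits. Xist was off in all libraries labelled cKO, so the difference rests on WT 1 and 2 in both.

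Levels per gene length were compared within each label. In WT the order was Unc93b1, Myd88 and Irak4, each above the next in all 5 libraries with ranges apart. Tlr2, Tlr9, Tlr1, Tlr4, Tlr6 and Ly96 followed, and neighbours in this order had overlapping ranges, with mean FPKM of 4.45 for Tlr2 to 2.07 for Ly96. Tlr5 was below all of them. In the libraries labelled cKO the order was Myd88, Unc93b1, Irak4, Ly96, Tlr2, Tlr6, Tlr4, Tlr1, Tlr9 and Tlr5, and the ranges of neighbours were apart only between Myd88 and Unc93b1 and between Irak4 and Ly96. Myd88, below Unc93b1 in every WT library, was thus above it in every library labelled cKO.

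The summed level of the 12 TLR genes in the table shows the receptors as a class. It was 32.31, 22.85, 20.55, 25.55 and 31.09 FPKM in WT and 4.5, 1.56, 7.71, 0.56 and 8.73 FPKM in cKO 1 to 5, with means of 26.5 ± 5.11 and 4.61 ± 3.62 (SD, n = 5 each). The highest library labelled cKO held less than the lowest WT library. Tlr9 made up 10.7% ± 1.70 of the sum in WT and 2.37% ± 2.35 in the libraries labelled cKO, and Tlr6 7.87% ± 1.17 and 18.9% ± 9.92. The Tlr6 share was 20.2%, 28.2% and 28.6% in cKO 1, cKO 2 and cKO 4, where the sum was smallest. In cKO 3 and cKO 5 it was 7.78% and 9.51%, near the 6.56% to 9.29% of WT.

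The libraries labelled cKO differed among themselves in the same way for many of the genes. Of the 7 genes called lower, cKO 4 was lowest in 6 and, for Tlr5, shared a value of 0 with cKO 1 and cKO 2. Library cKO 2 was among the lowest 2 in 6, cKO 5 among the highest 2 in 7 and cKO 3 in 5. As percent of the WT mean, Unc93b1 was at 11.5, 3.48, 20.7, 2.09 and 28.9 in cKO 1 to 5 and Tlr2 at 22.0, 9.89, 30.6, 0.899 and 37.1. The summed monocyte, macrophage and dendritic cell markers were at 5.23, 1.63, 14.5, 0.714 and 22.7 percent in the same libraries, and their order over the 5 libraries was the same as that of Unc93b1 and of Tlr2. The summed B cell markers shared it, at 17.1, 9.28, 49.2, 6.66 and 50.9 percent. The neutrophil markers were at 81.7, 5.69, 27.1, 4.62 and 35.2 percent, with cKO 1 highest, and so differed from that order. In cKO 1, S100a9, S100a8 and Ngp were at 895, 443 and 318 FPKM, against WT means of 71.6, 75.4 and 10.3. Mpo and Elane were at 277 and 184 FPKM there, against WT means of 1162 and 826. The erythroid markers, at 306, 347, 268, 375 and 225 percent, had the reverse of the order of Unc93b1. Myd88 (95.8 to 103 percent) and Irak4 (52.8 to 68.5 percent) varied little. The part of cell composition in the falls was not tested.

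**Figure D3:**
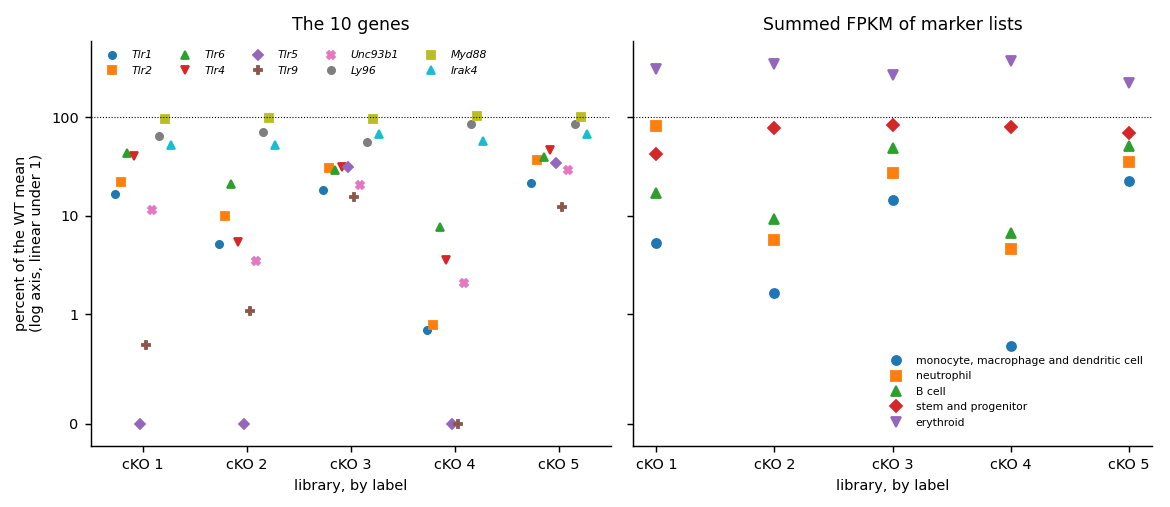
Left, level of each gene in the 5 libraries labelled cKO as percent of its WT mean. Right, the same for summed FPKM of 5 marker lists. The axis is logarithmic and linear under 1 percent. The receptors and Unc93b1 are lowest in cKO 4 and mostly cKO 2, as are the summed monocyte, macrophage and dendritic cell, neutrophil and B cell markers, while Myd88, Irak4 and Ly96 stay between 52.8 and 103 percent.

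Ratios of partner genes (FPKM + 0.1) within each library, which depend little on the scaling of the library except for values near 0.1, were compared between the labels by exact two-sided permutation tests, adjusted over 5 ratios. For 5 against 5 libraries the smallest p possible is 0.00794. The log2 ratio of Ly96 to Tlr4 was -0.47 to 0.18 in WT and 0.53, 2.84, 0.66, 3.38 and 0.72 in cKO 1 to 5, so the groups were apart and cKO 2 and cKO 4 stood far above the rest. The difference was 1.73 (exact p = 0.00794, adjusted p = 0.0198), and 0.80 with a pseudocount of 1. Leaving out any 1 WT library gave 1.64 to 1.81 with an adjusted p of 0.0794 by the exact test, so the call was lost whichever of WT 1 to 5 it was. The groups were still apart in each case. Leaving out any 1 library labelled cKO kept the adjusted p at 0.0198. The log2 ratio of Irak4 to Myd88 was -1.49 to -1.25 in WT and -2.20 to -1.83 in the libraries labelled cKO, a difference of -0.71 (exact p = 0.00794, adjusted p = 0.0198). With the replicate number as a block both differences had an adjusted p of 0.156, in a sign-flip test that cannot go below 0.0625 unadjusted. Thus, with all 10 libraries and no block, Ly96 was higher relative to Tlr4 under the cKO label, and Irak4 lower relative to Myd88.

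The other ratios did not pass the test. Tlr1 to Tlr2 differed by -0.18 (exact p = 0.532, adjusted p = 0.532) and Tlr6 to Tlr2 by 0.81 (exact p = 0.0794, adjusted p = 0.132). Unc93b1 to Tlr9 differed by 0.34 (exact p = 0.444, adjusted p = 0.532). With a pseudocount of 1 the sign of the Tlr1 to Tlr2 and Unc93b1 to Tlr9 differences turned, to 0.24 and -1.42, so these ratios of low values carry no direction.

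**Figure D4:**
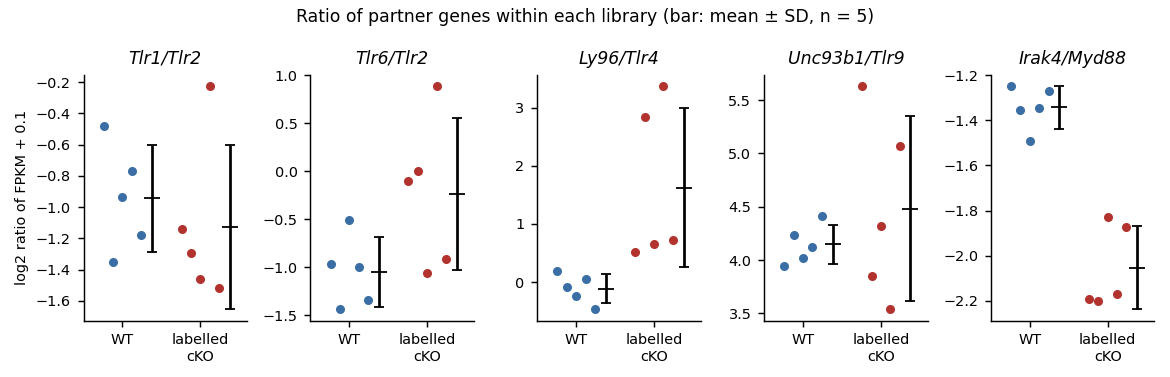
Log2 ratio of FPKM + 0.1 of 5 pairs of partner genes in each WT library (blue) and each library labelled cKO (red), with mean ± SD (n = 5). The groups are apart for Ly96/Tlr4, with a difference of 1.73, and for Irak4/Myd88, with a difference of -0.71, and overlap for the other pairs.

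To place the 10 genes in their pathway, 83 further genes in 10 lists drawn up by role were examined. Of these, 78 passed the filter on low values, 32 were called lower (41.0%, against 16.8% of all genes) and 3 higher (Ctsl, Relb and Il1b, 3.85%, close to the 4.6% of all genes), and their median log2 fold change was -0.60. Sarm1, Il12b, Cxcl2, Ptgs2 and Nos2 were too low to test. With WT 1 and 2 only, 22 were called lower and 1 higher (Ctsl), against 2347 and 541 of all 18742 genes in that fit. With all libraries and Xist as a covariate these counts were 29 and 2, against 2801 and 638 of all genes.

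Of the 6 TLR genes outside the 10, 4 were called lower, against 16.8% of all genes. Tlr7, Tlr8 and Tlr13, X-linked sensors of RNA in endosomes, were 3 of 4 in their list called lower. Tlr8 was at 3.88, 1.98, 2.18, 2.59 and 3.52 FPKM in WT and at 0.14, 0.06, 0.64, 0 and 0.72 FPKM in cKO 1 to 5 (log2 fold change -3.25, adjusted p = 0.000911). The WT libraries without Xist, WT 1 and 2, were the highest and the lowest of their label. Tlr7 and Tlr13 changed by -2.58 and -3.12 (adjusted p = 0.00107 and 0.00523). With WT 1 and 2 only, Tlr7 and Tlr8 were still called lower and Tlr13 was not. Tlr3, the receptor for double-stranded RNA, was not called. It was at 0.17 to 0.24 FPKM in WT and at 0.01, 0.04, 0.63, 0.03 and 0.33 FPKM in cKO 1 to 5, above WT in cKO 3 and cKO 5 and below it in the other 3. Tlr12 fell (-2.83, adjusted p = 0.000116), and Tlr11, low in all libraries, was not called.

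Of 5 co-receptors 4 fell (80% of the list, against 16.8% of all genes). Ly86 and Cd180, whose products pair as MD-1 and RP105, had log2 fold changes of -4.81 and -3.29 (adjusted p = 0.000693 and 0.000111). Ly86 was at 10.92 to 14.35 FPKM in WT and at 0.04, 0.19, 1.54, 0.02 and 2.42 FPKM in cKO 1 to 5, again highest in cKO 3 and cKO 5. Lbp, which hands lipopolysaccharide to CD14, changed by -2.61 (adjusted p = 0.00243), and Cd14 was also called lower. Of the genes for folding and processing TLRs, 5 of 10 fell (50%) and 1 rose. Hsp90b1, the endoplasmic reticulum chaperone of TLRs and the most abundant of the list, fell from 229 ± 32.1 to 114 ± 19.3 FPKM (SD, n = 5 each). Among the endosomal proteases, Ctss changed by -4.07 (adjusted p = 0.00218) and Lgmn by -1.60 (adjusted p = 0.0209), while Ctsl rose from 3.84 ± 0.301 to 9.73 ± 2.94 FPKM, with a log2 fold change of 1.27 (adjusted p = 0.000398). Ctsl was at 6.38, 12.42, 12.99, 9.46 and 7.39 FPKM in cKO 1 to 5, all above the highest WT library. Ifi30, a thiol reductase of lysosomes, changed by -1.37 (adjusted p = 0.000356).

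Next come the signalling genes. Of 3 adaptors tested, Ticam2, which links TLR4 to TRIF, fell from 6.21 ± 1.61 to 0.498 ± 0.588 FPKM (log2 fold change -3.94, adjusted p = 0.000432). Of 16 kinases and ubiquitin ligases, among them Irak1, Irak2 and Traf6, 3 were called lower, 18.75% of the list against 16.8% of all genes, and the list's median log2 fold change was 0.11. By adjusted p alone 4 of the 16 were lower and 4 higher, against 28.3% and 16.7% of all genes. The higher ones were Traf6 (0.41), Tab1 (0.68), Tab3 (0.76) and Chuk (0.55), each with all 5 libraries labelled cKO above WT. The 3 called lower were Map3k8 (-2.05, adjusted p = 0.000274), Syk (-1.68, adjusted p = 6.85e-05) and Ikbke (-1.46, adjusted p = 0.00052). Btk, the most abundant of the list, was at 48.3 ± 0.554 FPKM in WT and 45.8 ± 7.48 in the libraries labelled cKO, where cKO 1 was lowest at 33.11. Of 5 receptors for IL-1 family cytokines that use MYD88, 2 were called lower (40%, against 16.8% of all genes). These were Il18r1 and Il18rap, both subunits of the IL-18 receptor (-2.31 and -2.05, adjusted p = 0.00304 and 0.0078). Il1rl1, the IL-33 receptor and the most abundant of that list, had a log2 difference of 0.20 (adjusted p = 0.318).

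Of 8 transcription factors 2 fell (25% of the list, against 16.8% of all genes) and 1 rose. Irf5, which acts downstream of MYD88 in myeloid and B cells, was at 12.02 to 23.23 FPKM in WT and at 0.77, 0.54, 4.12, 0.25 and 4.35 FPKM in cKO 1 to 5 (log2 fold change -3.76, adjusted p = 0.000977). Rel, the NF-κB subunit c-Rel, fell (-2.82, adjusted p = 0.000184) and Relb, a subunit of the alternative NF-κB branch, rose from 0.62 ± 0.138 to 1.81 ± 0.741 FPKM (1.34, adjusted p = 0.00248). Rela was at 22.1 ± 1.29 and 24.4 ± 1.64 FPKM and was not called. Of 11 inhibitors, 5 fell (45.5%, against 16.8% of all genes) and 0 rose, with the largest changes in Dok3 (-3.0, adjusted p = 0.00331), Pik3ap1 (-2.20, adjusted p = 0.00435) and Irak3 (-1.61, adjusted p = 0.000101).

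Of 14 inflammatory target genes tested, 6 fell (42.9%, against 16.8% of all genes) and 1 rose. The chemokine genes Ccl3, Ccl4 and Ccl5 changed by -2.68, -3.13 and -2.36 (adjusted p = 0.00233, 0.00213 and 0.000359). Ccl3 was at 6.77 to 18.57 FPKM in WT and at 6.89, 1.22, 1.14, 0.52 and 1.56 FPKM in cKO 1 to 5, with cKO 1 inside the WT range. Il1b rose from 0.57 ± 0.186 to 1.57 ± 0.78 FPKM (1.20, adjusted p = 0.0216), but cKO 1 and cKO 5 lay inside the WT range.

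**Figure D5:**
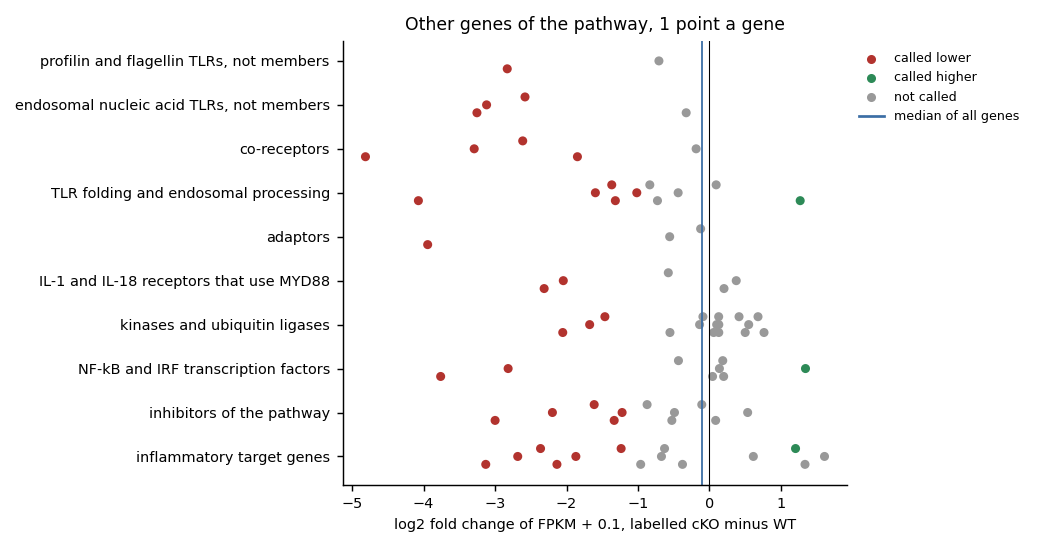
Log2 fold change of FPKM + 0.1 (libraries labelled cKO minus WT) of the 78 tested genes in 10 pathway lists, 1 point a gene, red where called lower, green where called higher and grey where not called. Receptors and co-receptors lie mostly left of -1.8. Kinases and ubiquitin ligases lie on both sides of the median of all genes (-0.11, blue line), with a list median of 0.11.

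For the members, genes with the most similar profile were sought among the 12353 genes averaging at least 1 FPKM, by the root mean square difference of centred log2 values over the 10 libraries. The nearest to Myd88 was Txndc15 (0.04), to Irak4 Mboat7 (0.06) and to Ly96 Ripor1 (0.12). For 6 of the genes called lower the nearest were Dennd3 to Tlr6 (0.13), Dio2 to Tlr4 (0.15), Hmga2 to Tlr5 (0.16), Rasa4 to Tlr9 (0.19), Trf to Tlr2 (0.22) and Fmnl1 to Tlr1 (0.23). Cebpe and Gfi1 came next for Tlr4 and Siglech was the third for Tlr9. Since these values share the difference between the labels, the likeness is a description over 10 libraries.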

How the data were processed

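Lin− bone marrow RNA of 5 WT and 5 cKO libraries, grouped by the genotype label, was analysed. Per the labels' processing notes, reads were processed with cutadapt 1.9.1, HISAT2 2.0.1 and HTSeq 0.6.1 on GRCm39, and the authors deposited gene FPKM rounded to 2 decimals. The annotation and strand setting are not given in the sources used here. The authors tested counts with DESeq2, which was not run on FPKM. Depth was read from genes with 1 transcript, where 95.4% to 96.1% of low values were whole fragments within 0.2, against 40% by chance.

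Symbols were matched by Ensembl identifier to GENCODE (54749 of 55359). limma 3.58.1 (lmFit, eBayes with a trend) in R 4.3.3 was run on log2(FPKM + 0.1), two-sided, over genes averaging at least 0.1 FPKM. Adjusted p-values are Benjamini-Hochberg over all 18742 genes. Fold changes on this scale understate the change of low genes. Exact permutation tests used scipy 1.17.1 in Python 3.11.15. The steps were tested on simulated data. No pair of libraries was alike within sampling noise.

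Alternatives were other pseudocounts, filters and scalings, no trend, a replicate block, adjusted p alone, Xist above 1 FPKM as a covariate, each library left out and, chosen after seeing the data, WT 1 and 2 only. The members, pathway lists and marker lists were chosen with earlier results of these data known. Vpreb1 of the B cell list was not matched by symbol. Named genes were the members, the label checks, of each pathway list the most abundant gene, up to 3 called genes by size of change and all called higher, Tlr7, Tlr8 and Tlr13, up to 3 markers per list by level in WT and the 3 nearest profiles per member. Others, such as Tlr3 and Kit, were named after their values were seen. The nearest profile to Unc93b1 is not reported here. 0 columns were left unused.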

Additional observations from a re-analysis of the deposited data

Results flagged for a closer look

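Among the genes named by rule, 164 groups of 5 libraries were checked for a library far from its group (Dixon's test at 95%), which marks about 1 in 20 groups by chance, or 8.2 here, and 6 were marked. None of them concerned the 10 genes. In the library cKO 1, Ccl3 was at 6.89 FPKM against 0.52 to 1.56 in the other libraries of that label, and Ccl4 at 1.31 FPKM against 0 to 0.2. In cKO 3, the NK cell gene Ncr1 was at 0.28 FPKM against 0 to 0.08, and the collagen gene Col1a1 at 0.38 FPKM against 0 to 0.08. In WT 3, the basophil protease genes Prss34 and Mcpt8 were at 328.7 and 204.9 FPKM against 671.4 to 722.6 and 338.2 to 371.7 FPKM in the other WT libraries.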

How the results depend on the processing

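The count of 7 members called lower was within 1.5 times under 20 of 21 alternatives, and 0 were called higher under all 21. With WT 1 and 2 only it was 4 (fewer libraries), where 2347 of all 18742 genes were called lower. With a pseudocount of 1 it was 5, where 1486 of all genes were, since Tlr5 (-0.34) and Tlr6 (-0.96) were then under 2-fold. For Tlr5, at 0.24 to 0.39 FPKM in WT, this was so by construction. For Tlr6, at 1.5 to 2.8 FPKM in WT, it was not. Tlr1, Tlr9 and Unc93b1 were called under all 21 alternatives. The count of pathway genes called higher was 3, and 1 with a pseudocount of 1, 9 by adjusted p alone and 1 with WT 1 and 2 only. The adjusted p of Ly96 was 0.0251 to 0.845 and not under 0.05 in 13 of 21 alternatives, the replicate block (0.0823) among them. Ly96 turned sign with quantile normalization (0.0474), which moved the median of all genes from -0.11 to 0.10. Myd88 turned sign with median-ratio scaling (0.0862), with Xist as a covariate (0.0093) and with WT 1 and 2 only (0.0093), and with 1 library left out it was -0.0572 to 0.0089, above 0 without WT 4 and without WT 5. The causes were not tested. Among the ratios, a pseudocount of 1 gave Ly96/Tlr4 0.80 (still called), Tlr1/Tlr2 0.24, Unc93b1/Tlr9 -1.42 (adjusted p = 0.0132, exact test) and Tlr6/Tlr2 0.61 (adjusted p = 0.0298, exact test), and one of 0.01 gave Unc93b1/Tlr9 1.77 (adjusted p = 0.0132, exact test). Without 1 library each, Ly96/Tlr4 was 1.30 to 2.01, and without 1 WT library 1.64 to 1.81 (adjusted p = 0.0794, exact test). With WT the smaller group, splits that place cKO 2 and cKO 4 in that group give a larger difference. Same-numbered libraries had correlations of deviations of 0.117, 0.026, -0.01, -0.003 and 0.093. For WT 1, 2 and 5 the same-numbered library labelled cKO correlated best, so whether the replicate numbers pair the samples was not settled. With the replicate block, members called lower and higher were 7 and 0 and pathway genes 32 and 3, and the ratios Ly96/Tlr4 (1.73) and Irak4/Myd88 (-0.71) had an adjusted p of 0.156, in a sign-flip test over 5 pairs that cannot go below 0.0625 unadjusted. Depth limits Tlr5 and, in the libraries labelled cKO, Tlr9, where values lie near 3 fragments.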
